A study of Homo sapiens with 16 samples.

Results

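The genes described here are 39 lysosome and autophagy genes in VCaP cells, a human prostate cancer line that carries the TMPRSS2-ERG fusion and responds to androgen. They are a list of gene names with no threshold on a measured value, drawn up with earlier results of these data known: 15 encode lysosomal membrane proteins, hydrolases and proton pump subunits, 3 encode the MiT/TFE transcription factors TFEB, TFE3 and MITF, and 21 encode proteins of the autophagy machinery. All 39 were found by gene name among the 58302 genes listed, and all 39 passed the filter on low counts that left 22553 genes to test. PolyA RNA was sequenced from 16 libraries in 8 groups of 2. The Vc cells had spent 4 months in ethanol, the solvent, and the Ver cells 4 months in 1 µM enzalutamide, a drug that blocks androgen signalling. Every group was then starved for at least 48 h in charcoal-stripped serum, which holds little steroid, and then kept for 24 h in control medium, in 1 nM DHT (dihydrotestosterone, the potent natural androgen), in 1 µM enzalutamide, or in both. Vc and Ver are 1 cell population each. The labels do not say whether the libraries of a group came from separate cultures, so the p-values measure only the spread between these libraries, which may be technical.

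Lysosomes are acidic organelles in which hydrolases break down proteins, lipids and sugars. Autophagy delivers cytoplasm to them: a membrane cup, the phagophore, grows around cargo, closes into an autophagosome and fuses with the lysosome. The ULK1 kinase complex starts the process, a class III PI3-kinase complex marks the membrane with the lipid PI3P, PI3P-binding proteins recruit a conjugation machinery, and that machinery attaches ATG8 proteins such as LC3B to the growing membrane. TFEB, TFE3 and MITF are transcription factors that bind E-box sequences in promoters of many lysosomal and autophagy genes and are held in the cytoplasm when the nutrient-sensing kinase mTORC1 is active. In prostate cancer cells androgen is known to regulate metabolism and secretion, and autophagy has been studied there as a response to androgen withdrawal and to enzalutamide.

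Each library held between 8155244 and 13273523 counts in genes. The luminal and VCaP marker genes were abundant (summed level 4754 to 11375 CPM, counts scaled to a common library size, over 10 genes), and 6 of 8 immune and 5 of 8 stromal and endothelial markers stayed at or under 1 CPM in every library. The highest of the others moved with DHT. CSF1R, a macrophage receptor gene, was at 1.19 to 2.69 CPM in Vc control and 4.6 to 7.42 with DHT, and at 2.24 to 3.69 and 8.21 to 9.36 in Ver. LUM, which encodes a matrix proteoglycan of stroma, was at 13.5 to 14.0 CPM in Vc control and 0.328 to 0.61 with DHT, and at 49.6 to 57.2 in Ver control and 0.803 to 1.2 with DHT. The share of reads in no gene was also lower with DHT: 46.89 to 47.07% against 50.13 to 50.61% in Vc, and 45.28 to 45.59% against 48.66 to 49.01% in Ver. The part of these shifts in the results below was not tested. All Vc libraries carry lane L008 in the labels and all Ver libraries lane L002, so line and lane cannot be told apart.

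The E-box core CACGTG, the centre of the sequence that TFEB and its relatives bind, was searched in promoter windows from 250 bases before to 50 after the gene start (RefSeq, GRCh38.p14). The motif reads the same on both strands. It lay in the windows of 8 of the 31 members that had one, against 7.26% of all 35116 windows and 8.77% of the 27305 genes with a window. Not searched were ATP6V1A, LAMP2, HEXA, UVRAG, ATP6V1H, RB1CC1, CTSB and ATG4D. The longer form TCACGTGA, which contains the core and also reads the same on both strands, was in 5 members (LAMP1, MCOLN1, CTSA, ATP6V0D1 and ATG3) and in 1.18% of genes. A match is a string of letters, not a measured binding site. The stretches below show where the core lies in the 4 lysosomal members that hold it and rose with DHT in both lines. They run 5′ to 3′ on the gene's strand to 10 bases past the gene start, except that of NEU1, which ends 81 bases before it. Capitals mark each CACGTG. LAMP1 is at chr13:113297039-113297248, plus strand, ATP6V0D1 at chr16:67481148-67481237, minus strand, CTSD at chr11:1763918-1764007, minus strand, and NEU1 at chr6:31862902-31862961, minus strand.
LAMP1: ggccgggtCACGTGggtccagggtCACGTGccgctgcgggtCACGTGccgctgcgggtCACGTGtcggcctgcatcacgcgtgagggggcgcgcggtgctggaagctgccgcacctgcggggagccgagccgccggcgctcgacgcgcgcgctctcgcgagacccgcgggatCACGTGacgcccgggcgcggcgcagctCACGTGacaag
ATP6V0D1: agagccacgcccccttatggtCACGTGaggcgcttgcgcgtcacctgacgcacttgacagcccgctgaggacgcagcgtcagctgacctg
CTSD: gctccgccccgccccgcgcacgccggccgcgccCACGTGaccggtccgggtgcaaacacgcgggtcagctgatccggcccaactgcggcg
NEU1: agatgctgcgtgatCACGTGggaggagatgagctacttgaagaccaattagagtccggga
These 4 genes rose with DHT in both lines. LAMP1 had 6 copies of the core, the first at 192 bases and the last at 1 base before the start, and the other 3 genes 1 copy each. MCOLN1 and CTSA are shown because they carry the core in pairs close to the start and did not rise: MCOLN1 at chr19:7522544-7522633 and CTSA at chr20:45891255-45891344, both plus strand.
MCOLN1: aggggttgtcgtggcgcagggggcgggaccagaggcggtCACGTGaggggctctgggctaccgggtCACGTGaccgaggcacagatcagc
CTSA: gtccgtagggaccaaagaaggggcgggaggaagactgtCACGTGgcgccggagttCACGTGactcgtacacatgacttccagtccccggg
WIPI1 and MAP1LC3B are shown for contrast, as genes with large rises and no CACGTG in the window: WIPI1 at chr17:68457487-68457576, minus strand, and MAP1LC3B at chr16:87392256-87392345, plus strand.
WIPI1: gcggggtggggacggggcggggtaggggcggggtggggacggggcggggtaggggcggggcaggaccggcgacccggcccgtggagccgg
MAP1LC3B: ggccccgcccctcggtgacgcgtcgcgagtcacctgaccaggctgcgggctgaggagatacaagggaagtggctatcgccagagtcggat
The absence of these letters from a window says nothing of a factor's binding elsewhere. ATG14 and ATG3 also held the core, at 21 bases before the start in ATG14 and at 18 bases before and 6 bases into the gene in ATG3. Of the 8 genes with the core, 4 rose in both lines, CTSA fell in Vc, ATG14 fell in Ver, and MCOLN1 and ATG3 were not called in either line. Beside these, 19 of all 39 members rose in both lines, some of them, such as LAMP2 and ATG4D, not searched for the core. Whether the core goes with a rise was not tested.

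**Figure D1:**
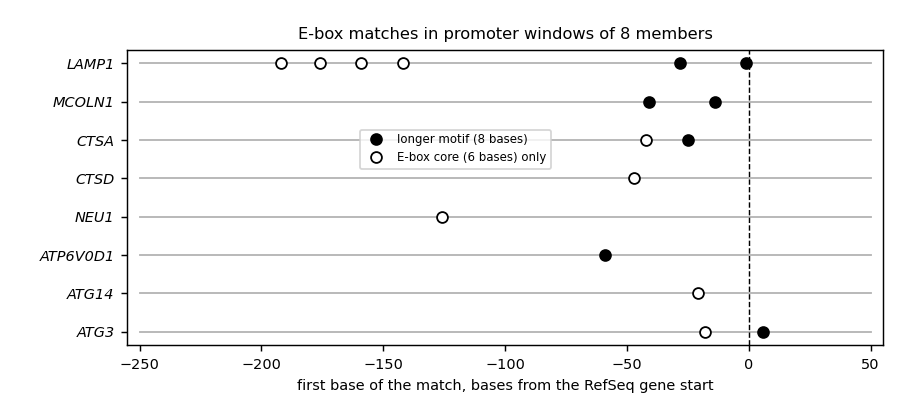
Positions of CACGTG alone (open circles) and of the longer TCACGTGA (filled circles) in the promoter windows of the 8 members that hold the core, as the distance in bases of the match's leading base from the RefSeq gene start (dashed line). LAMP1 has 6 matches, MCOLN1, CTSA and ATG3 have 2 each and the other 4 genes have 1 each.

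With DHT, most of the genes moved, and most of those that moved rose. In Vc, 21 of 39 rose (53.8%) and 4 fell (10.3%), beside 21.8% of all tested genes called higher and 22.5% called lower. In Ver, 21 rose (53.8%) and 5 fell (12.8%), beside 21.2% and 22.9% of all tested genes. The median log2 change of the 39 was 0.23 in Vc and 0.29 in Ver, and that of all tested genes was -0.04 in each line. WIPI1, which encodes a PI3P-binding protein, the V-ATPase subunit gene ATP6V0D1 and the LC3B gene MAP1LC3B had the 3 largest rises in each line. Calls are from edgeR's quasi-likelihood test with Benjamini-Hochberg adjustment over all tested genes, and every called member had DHT libraries that did not overlap the control libraries. So had some members that were not called: 30 of the 39 had no overlap in each line. The share of all tested genes without overlap is not given here, and with 2 libraries a group the lack of overlap adds little to a call. Since RNA was pooled over a culture, fewer cells expressing a gene and less RNA per cell cannot be told apart. In all, 19 genes rose in both lines, GUSB and ULK2 fell in both, and ULK1 rose in Vc and fell in Ver. The share of all tested genes called the same way in both lines is not given here, so these shared counts have no background beside them.

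The split of higher and lower calls depended on the scaling. With library totals in place of TMM, the median change of all genes moved by -0.17 in Vc and by -0.19 in Ver, and the members split into 17 higher and 6 lower in Vc and 13 higher and 10 lower in Ver. All tested genes then split into 15.9% higher and 30.2% lower in Vc, and into 14.6% higher and 31.1% lower in Ver. Under that scaling 13 of the 19 rose in both lines, and LAMP1, LAMP2, TFE3, BECN1, ATG5 and ATG12 were no longer called in at least 1 of them. Rises called in 1 line only were lost as well. They were those of MITF in Vc (0.78, adjusted p = 0.0589 by edgeR) and, in Ver, of ATP6V1H (0.16, adjusted p = 0.0506) and RB1CC1 (0.1, adjusted p = 0.218). DESeq2 ended the calls of ULK1 (adjusted p = 0.109 in Vc and 0.165 in Ver), ATG12 (0.151 and 0.0714) and, in Vc, MITF (0.0929).

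**Figure D2:**
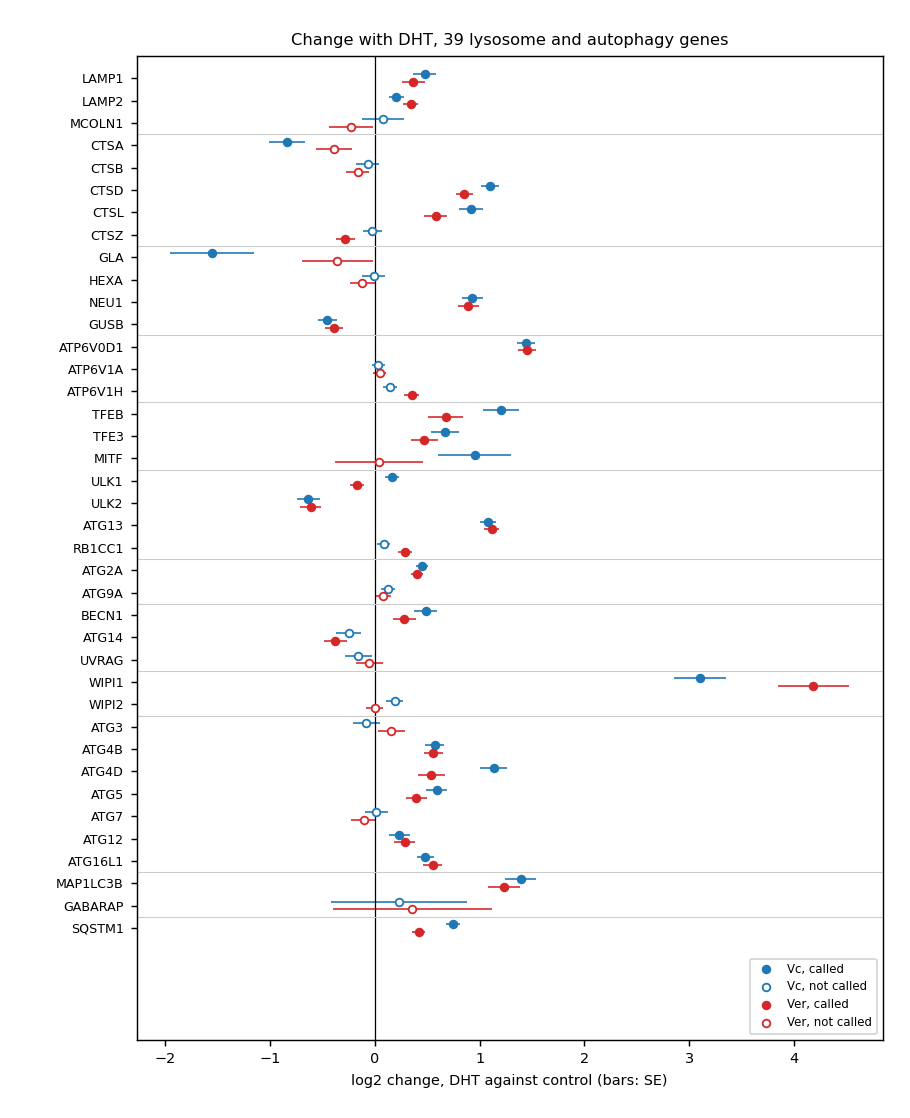
Log2 change with DHT against control in Vc (blue) and Ver (red) for the 39 genes, grouped by role, with SE as bars; filled points passed an adjusted p of 0.05. WIPI1 lies furthest right (3.10 in Vc, 4.18 in Ver), GLA in Vc furthest left (-1.55).

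Among the lysosomal membrane proteins, LAMP1 and LAMP2, the heavily glycosylated proteins that line the inner face of the lysosome, rose by small amounts. LAMP1 (ENSG00000185896) was at 29.4 and 28.5 CPM in the Vc control libraries and at 38.8 and 41.9 with DHT, a log2 change of 0.48 ± 0.11 (SE; adjusted p = 9.0e-05). In Ver it was at 34.8 and 36.5 CPM in control and at 48.9 and 43.1 with DHT, a log2 change of 0.37 ± 0.11 (adjusted p = 0.00248). The DHT libraries lay above the control libraries in both lines, but the Ver call was lost without Ver DHT replicate 1 (adjusted p = 0.0854). LAMP2 rose by 0.21 ± 0.07 in Vc, a call lost without Vc control replicate 1 (adjusted p = 0.109) or Vc DHT replicate 2 (0.144), and by 0.34 ± 0.07 in Ver. MCOLN1, the calcium channel of the lysosomal membrane, was not called (0.08 ± 0.20 in Vc and -0.23 ± 0.21 in Ver), and its control and DHT libraries overlapped.

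The lysosomal proteases did not move together. CTSD, which encodes the aspartic protease cathepsin D, was at 40.7 and 33.0 CPM in Vc control and at 79.6 and 78.3 with DHT, 2.14-fold higher (log2 1.10 ± 0.09, adjusted p = 3.6e-24). In Ver it went from 48.4 and 50.9 CPM to 94.6 and 85.0, 1.81-fold higher (log2 0.85 ± 0.08, adjusted p = 1.3e-17). Every DHT library was far above every control library of its line. CTSL, the cysteine protease cathepsin L, rose 1.89-fold in Vc and 1.5-fold in Ver. CTSA, which encodes the protective protein that stabilises the sialidase NEU1, went the other way in Vc, from 16.1 and 14.7 CPM to 8.21 and 9.04 (log2 -0.84 ± 0.17, adjusted p = 1.3e-05). In Ver, CTSA was at 16.3 and 12.1 CPM in control and at 11.8 and 9.78 with DHT, which was not called (log2 -0.39 ± 0.17, adjusted p = 0.0532). The groups did not overlap in either line, and the difference between the lines was not called (adjusted p = 0.458). CTSZ, a carboxypeptidase, fell in Ver (53.3 and 55.3 CPM in control, 47.7 and 41.5 with DHT; log2 -0.28 ± 0.09), a call lost without Ver control replicate 2 (adjusted p = 0.0687) or Ver DHT replicate 2 (-0.19, adjusted p = 0.2). CTSZ in Vc (log2 -0.03 ± 0.09) and CTSB in both lines (-0.07 ± 0.11 and -0.16 ± 0.11) were not called. Counting ignored strand and set aside reads that fell on more than 1 gene. Of the exon bases of CTSD 52.7% are shared with overlapping gene models whose mean levels were at most 3.53 CPM. Reads there were set aside whatever the level of the model, so the CTSD counts come from its other exon bases. One of these models, AC068580.3, rose in Vc (1.03, adjusted p = 0.0279 by edgeR) and was not called in Ver (0.52, adjusted p = 0.269). Of the exon bases of CTSA 28.5% are shared with opposite genes, among them PLTP, which itself fell (-1.64 in Vc, -1.02 in Ver). The part of these overlaps in the CTSD and CTSA values was not tested.

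The glycosidases also split. NEU1, the lysosomal sialidase, rose from 31.3 and 26.5 CPM to 56.4 and 53.9 in Vc (1.9-fold) and from 31.6 and 27.5 to 54.8 and 54.7 in Ver (1.86-fold). Its controls and DHT libraries were well apart in both lines. GUSB, beta-glucuronidase, fell in both lines. It was at 56.0 and 59.6 CPM in Vc control and at 41.2 and 43.3 with DHT (log2 -0.45 ± 0.09, adjusted p = 5.0e-06), and in Ver at 63.9 and 66.0 and then at 54.4 and 44.9 (log2 -0.39 ± 0.09, adjusted p = 7.9e-05), where the change was -0.25 without Ver DHT replicate 2. GLA, alpha-galactosidase A, was expressed at a low level and fell in Vc, from 3.23 and 3.74 CPM to 1.23 and 1.12, 0.341 times the control level (adjusted p = 3.1e-04). In Ver it was at 3.59 and 3.4 CPM in control and 2.59 and 2.86 with DHT, which was not called (log2 -0.36 ± 0.34), and the difference between the lines was not called either (1.19 ± 0.53, adjusted p = 0.289). HEXA, the alpha subunit of beta-hexosaminidase, stayed between 28.1 and 38.9 CPM in all 16 libraries and was not called in any comparison.

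The V-ATPase is the proton pump that acidifies the lysosome, built from a membrane sector (V0) and a catalytic sector (V1). Its V0 subunit d, ATP6V0D1 (ENSG00000159720, chr16:67438014-67481237), rose from 33.3 and 31.7 CPM to 88.0 and 88.3 in Vc, 2.71-fold (log2 1.44 ± 0.09, adjusted p = 2.3e-33). In Ver it rose from 34.0 and 43.0 CPM to 107 and 104, 2.73-fold (log2 1.45 ± 0.09, adjusted p = 3.5e-34). The control and DHT libraries were far apart in both lines, and the difference in response between the lines was 0.01, with a 95% interval of -0.23 to 0.25. The list holds 2 subunits of V1. ATP6V1A, the catalytic subunit, was not called (0.03 ± 0.06 in Vc and 0.05 ± 0.06 in Ver). ATP6V1H rose in Ver (0.35 ± 0.07) and was not called in Vc (0.14 ± 0.07, adjusted p = 0.0828), and the difference between the lines was not called (adjusted p = 0.37).

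All 3 MiT/TFE factors rose in Vc. TFEB (ENSG00000112561, chr6:41683978-41736259) was at 8.93 and 8.24 CPM in Vc control and at 18.8 and 20.8 with DHT, 2.3-fold higher (log2 1.20 ± 0.17, adjusted p = 2.0e-10). In Ver it was at 10.7 and 11.4 CPM and then at 17.1 and 18.1, 1.6-fold higher (log2 0.68 ± 0.17, adjusted p = 2.9e-04). The DHT libraries were above the controls in both lines, and the smaller change in Ver was not called as a difference (-0.53 ± 0.24, adjusted p = 0.314). TFE3 rose by 0.67 ± 0.13 in Vc and 0.47 ± 0.13 in Ver. MITF was the lowest of the 3 at 3.16 and 1.53 CPM in Vc control and 3.94 and 5.28 with DHT. Its call in Vc (log2 0.95 ± 0.35) was lost without Vc control replicate 2 (0.54, adjusted p = 0.336) or Vc DHT replicate 2 (adjusted p = 0.185), and its change was 1.58 without Vc control replicate 1. In Ver MITF was at 1.75 and 1.97 CPM in control and at 1.87 and 1.94 with DHT, and was not called.

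The 4 members of the ULK1 initiation complex went in different directions. ATG13, the adaptor that links the kinase to its partners (chr11:46617527-46674818), rose from 49.2 and 46.0 CPM to 99.2 and 102 in Vc, 2.11-fold (log2 1.08 ± 0.08, adjusted p = 2.2e-27). In Ver it rose from 55.2 and 54.8 CPM to 121 and 117, 2.16-fold (log2 1.11 ± 0.08, adjusted p = 7.1e-29). These groups were far apart. ULK2, a kinase related to ULK1, fell in both lines, from 38.8 and 41.8 CPM to 24.8 and 27.1 in Vc (log2 -0.64 ± 0.11, adjusted p = 1.3e-07) and from 52.7 and 48.7 to 33.6 and 32.6 in Ver (-0.61 ± 0.10, adjusted p = 1.4e-07). RB1CC1, the large scaffold also called FIP200, rose in Ver, from 106 and 101 CPM to 127 and 126 (log2 0.29 ± 0.07, adjusted p = 8.6e-05). In Vc it was at 129 and 127 CPM in control and at 131 and 141 with DHT, which was not called (log2 0.08 ± 0.06).

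ULK1, the kinase itself (ENSG00000177169, chr12:131894651-131923167), was called higher in Vc and lower in Ver. It was at 94.0 and 101 CPM in Vc control and at 106 and 112 with DHT (log2 0.16 ± 0.07, adjusted p = 0.0416). In Ver it was at 123 and 132 CPM in control and at 118 and 108 with DHT (log2 -0.17 ± 0.07, adjusted p = 0.0293). Control and DHT libraries were close together without overlapping, and with DHT the libraries of the lines overlapped. Both calls were fragile. The Vc call was lost without Vc control replicate 1 (adjusted p = 0.326) or Vc DHT replicate 2 (0.275), and with scaling by library totals its change was -0.010. The Ver call was lost without Ver control replicate 2 (adjusted p = 0.298) or Ver DHT replicate 2 (-0.10, adjusted p = 0.335).

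ATG2A, which carries lipids to the growing phagophore, rose slightly in both lines (0.45 ± 0.06 in Vc and 0.40 ± 0.06 in Ver). ATG9A, the membrane protein that works with it, was not called (0.13 ± 0.07 and 0.08 ± 0.07). Of its exon bases 38.8% are shared with an overlapping gene model. That model has no level in these counts, so whether reads there were set aside is not known. In the class III PI3-kinase complex, the scaffold BECN1 rose in Vc (0.49 ± 0.11) and in Ver (0.28 ± 0.11). The Ver call did not survive the removal of any of the 4 libraries compared (adjusted p = 0.0879 and 0.0625 without Ver control replicates 1 and 2, 0.0803 and 0.0668 without Ver DHT replicates 1 and 2). BECN1 shares 17.1% of its exon bases with CNTD1 and PSME3 on the opposite strand. PSME3, the more abundant of these, changed by -0.08 in Vc and by -0.19 in Ver. The part of that overlap in the BECN1 values was not tested. ATG14, the subunit that directs the complex to the phagophore, fell in Ver from 38.4 and 38.1 CPM to 29.8 and 29.0 (log2 -0.38 ± 0.11, adjusted p = 0.00305). In Vc ATG14 was at 25.9 and 31.9 CPM and then at 25.6 and 22.8, which was not called (-0.25 ± 0.12, adjusted p = 0.0732), and the difference between lines was not called (adjusted p = 0.824). UVRAG, the alternative subunit of the complex, was not called in either line.

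WIPI1, a protein that binds PI3P on the phagophore, had the largest change of the 39 genes in both lines. WIPI1 (ENSG00000070540, chr17:68420948-68457513, minus strand) was at 3.31 and 1.61 CPM in the Vc control libraries and at 21.5 in both DHT libraries, 8.6-fold higher (log2 3.10 ± 0.25, adjusted p = 5.6e-26). In Ver it was at 0.873 and 1.34 CPM and then at 19.7 and 21.2, 18.2-fold higher (log2 4.18 ± 0.34, adjusted p = 1.9e-30). WIPI1 was low in every control library and lay above 19 CPM in every DHT library, and the difference in response was not called (1.08 ± 0.42, adjusted p = 0.183). Together, ARSG and the small gene model AC007780.1, both on the opposite strand, overlap 28.1% of the exon bases of WIPI1. Reads there were not counted. In Vc, AC007780.1 rose from a mean of 0.085 to 1.1 CPM (log2 3.58, adjusted p = 0.00347 by edgeR). In Ver it rose from 0.0447 to 0.634 CPM (3.48, adjusted p = 0.0227). ARSG itself went from a mean of 1.6 to 3.8 CPM in Vc (adjusted p = 0.00226) and from 3.36 to 4.98 in Ver (adjusted p = 0.145), and the part of unassigned reads in the WIPI1 values was not tested. WIPI2, the PI3P-binding protein that recruits ATG16L1, was at 49.4 and 52.1 CPM in Vc control and at 59.8 and 55.6 with DHT (0.19 ± 0.08, adjusted p = 0.0591). In Ver it was at 68.4 and 71.6 CPM and then at 71.6 and 68.3, and was called in neither line.

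Of the 7 conjugation genes, the same 5 rose in both lines: ATG5, ATG12 and ATG16L1, which form the complex that attaches ATG8 proteins to lipid, and the proteases ATG4B and ATG4D, which process ATG8 proteins. ATG16L1 went from 55.1 and 54.9 CPM to 74.3 and 79.3 in Vc (log2 0.48 ± 0.08, adjusted p = 2.4e-07), and from 38.6 and 38.3 to 56.1 and 56.7 in Ver (0.55 ± 0.09, adjusted p = 4.0e-08). ATG4D went from 14.5 and 15.9 CPM to 32.2 and 34.4 in Vc (1.13 ± 0.13, adjusted p = 5.9e-14), and from 20.0 and 25.8 to 32.5 and 34.2 in Ver (0.54 ± 0.13, adjusted p = 1.3e-04). With DHT the ATG4D libraries of the lines overlapped, while in control those of Ver were higher, and the difference in response just missed the threshold (-0.59 ± 0.18, adjusted p = 0.0549). ATG4D shares 15.0% of its exon bases with KRI1 on the opposite strand, which fell with DHT (-0.53 in Vc and -0.37 in Ver). The part of that overlap in the ATG4D values was not tested. ATG4B rose by 0.57 and 0.56, and ATG5 by 0.59 and 0.40. ATG12 had the weakest calls (0.23 ± 0.10 and 0.28 ± 0.10). They were lost in Vc without Vc control replicate 1 (0.11, adjusted p = 0.513) or Vc DHT replicate 1 (adjusted p = 0.298) and in Ver without Ver control replicate 2 (0.15, adjusted p = 0.359) or Ver DHT replicate 2 (0.16, adjusted p = 0.327); the change was 0.37 and 0.44 without the other control of each line. The activating enzyme ATG7 and the conjugating enzyme ATG3 were not called in either line.

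At the end of the pathway stand the ATG8 proteins and the cargo receptors that bind them. MAP1LC3B (ENSG00000140941, chr16:87383995-87404779), which encodes LC3B, rose from 11.6 and 9.01 CPM to 28.8 and 25.4 in Vc, 2.62-fold (log2 1.39 ± 0.15, adjusted p = 1.3e-15). In Ver it rose from 13.2 in both controls to 31.6 and 30.5 CPM, 2.35-fold (log2 1.23 ± 0.15, adjusted p = 2.1e-13). No control library came near a DHT library. GABARAP, the other ATG8 member, had only 152 counts over all 16 libraries, and 55.7% of its exon bases are shared with overlapping gene models, so reads there were set aside and its level cannot be read from these counts. SQSTM1 (ENSG00000161011, chr5:179806398-179838078), the receptor p62 that carries ubiquitinated cargo and is itself degraded by autophagy, rose from 89.2 and 93.2 CPM to 151 and 155 in Vc, 1.68-fold (log2 0.75 ± 0.06, adjusted p = 3.0e-21). In Ver it rose from 123 and 113 CPM to 162 and 153, 1.34-fold (log2 0.42 ± 0.06, adjusted p = 5.5e-09). With DHT the SQSTM1 libraries of the lines overlapped, while in control those of Ver were higher. It shares 22.0% of its exon bases with MGAT4B and MRNIP on the opposite strand. MGAT4B, the more abundant of the 2, went from a mean of 257 to 240 CPM in Vc (-0.1, adjusted p = 0.142 by edgeR). In Ver, MGAT4B fell from 270 to 208 CPM (-0.38, adjusted p = 8.1e-10 by edgeR). MRNIP fell with DHT in both lines (-0.23 in Vc and -0.34 in Ver). The part of that overlap in the SQSTM1 values was not tested.

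**Figure D3:**
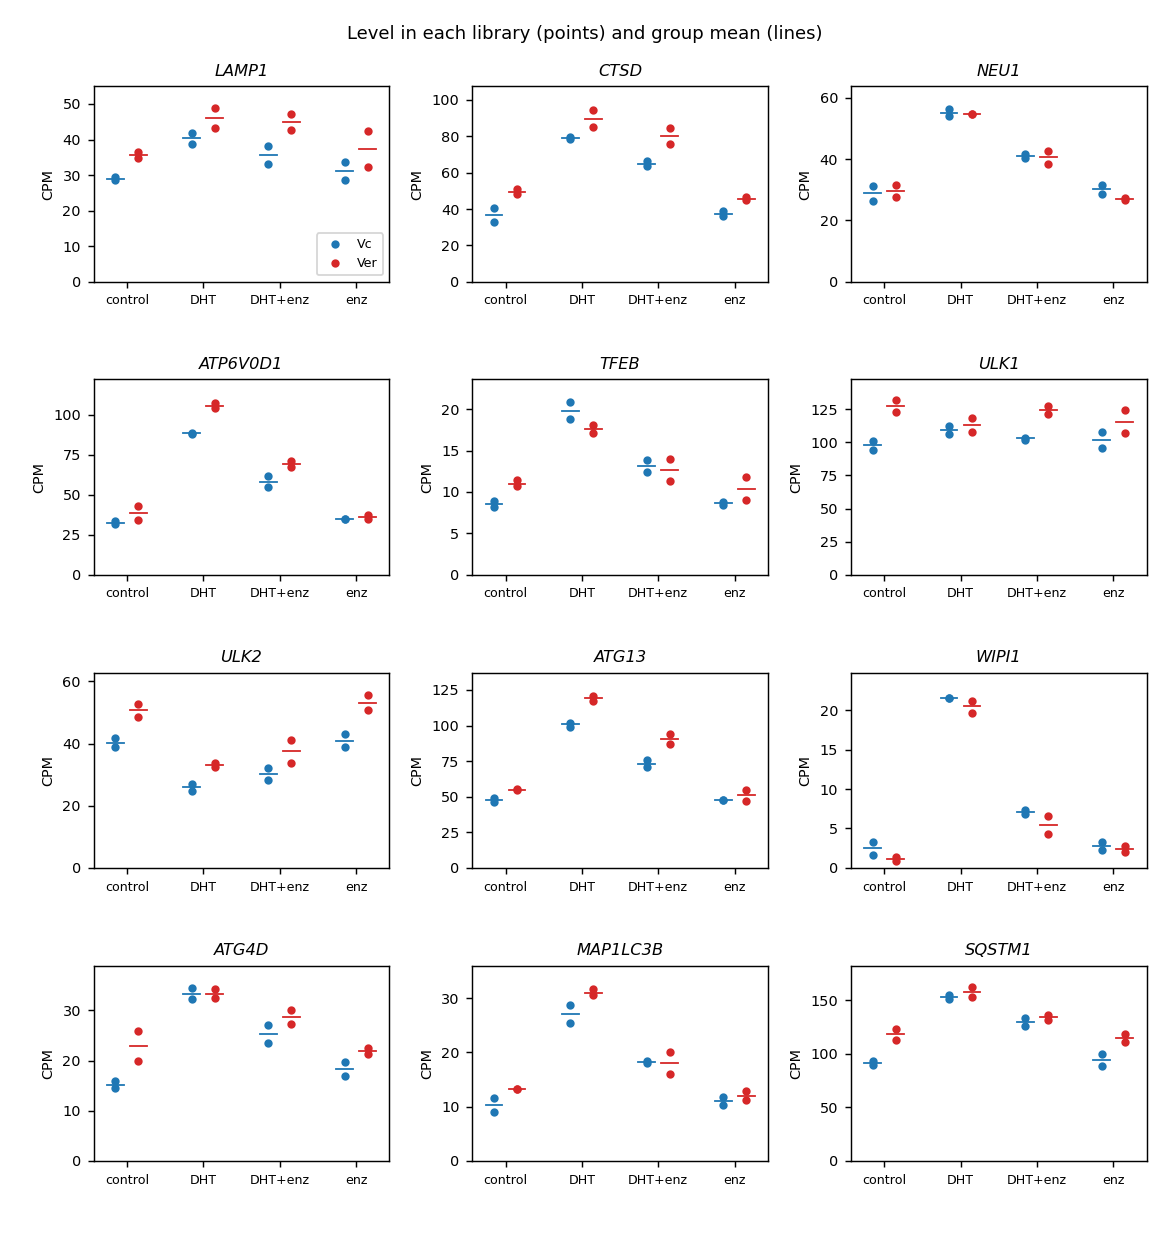
Level in CPM of 12 members in each of the 16 libraries (points; lines are group means) by treatment, Vc in blue and Ver in red, with every axis starting at 0. WIPI1 is at 0.873 to 3.31 CPM in control and 19.7 to 21.5 with DHT, and for ULK1, SQSTM1 and ATG4D the lines differ in control and lie together with DHT.

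The response to DHT was then compared between the lines by an interaction term in the same fit. Of the 39 genes, 2 had a lower response in Ver, ULK1 and SQSTM1, and none a higher one, beside 1.43% of all tested genes called lower and 0.891% called higher. The difference was -0.33 ± 0.10 for ULK1 (adjusted p = 0.0334) and -0.33 ± 0.09 for SQSTM1 (adjusted p = 0.0231). For SQSTM1 both lines rose and Ver rose less, and for ULK1 the signs were opposite. Neither call was stable: DESeq2 gave adjusted p = 0.13 for ULK1 and 0.0616 for SQSTM1. ULK1 lost it without Vc control replicate 1 (0.248), Vc DHT replicate 2 (0.211), Ver control replicate 2 (0.22) or Ver DHT replicate 2 (0.246). SQSTM1 lost it without Vc control replicate 1 (0.161), Vc DHT replicate 1 (0.0556) or 2 (0.138), Ver control replicate 1 (0.186) or Ver DHT replicate 2 (0.15). Of MITF, CTSA, GLA, ATP6V1H, RB1CC1, CTSZ and ATG14, each called in 1 line only, none had a called difference (adjusted p from 0.289 for GLA to 0.824 for ATG14). This comparison uses the same control libraries as the comparison of untreated lines below.

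Enzalutamide alone, in cells starved of androgen, moved almost none of the genes. In Vc none of the 39 was called by edgeR's quasi-likelihood test or by DESeq2, beside 0.155% of all tested genes called higher and 0.381% called lower by edgeR. At the looser threshold of an unadjusted p under 0.05 by edgeR there were 5 of the 39. The share of all tested genes at that threshold is not given here. In Ver 1 gene was called higher and none lower, beside 0.47% and 0.661% of all tested genes. That gene was LAMP2, at 87.7 and 82.8 CPM in Ver control and at 108 and 100 with enzalutamide (log2 0.29 ± 0.07, adjusted p = 0.0128). The groups did not overlap, but the call was lost without Ver control replicate 2 (adjusted p = 0.339) or Ver enzalutamide replicate 1 (0.309). WIPI1 in Ver, at 0.873 and 1.34 CPM in control, was at 1.96 and 2.81 with enzalutamide, which was not called (log2 1.11 ± 0.39, adjusted p = 0.18). In Vc the WIPI1 libraries overlapped (3.31 and 1.61 CPM in control, 3.23 and 2.29 with the drug). These comparisons share their control libraries with those of DHT.

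On top of DHT, enzalutamide lowered many of the genes that DHT had raised. In Vc, 15 genes fell (38.5%) and 1 rose, beside 11% of all tested genes called lower and 11.5% called higher. In Ver, 12 fell (30.8%) and 2 rose, beside 13.2% and 13.7% of all tested genes. The same 8 genes fell in both lines: NEU1, ATP6V0D1, TFEB, ATG13, ATG2A, WIPI1, MAP1LC3B and SQSTM1, each of which had risen with DHT in both lines. The share of all tested genes that fell in both lines is not given here. The DHT comparison uses the same DHT libraries, and the 2 are not independent. That these 8 genes were lower with both compounds than with DHT is how they were picked. Against control, their libraries with both compounds did not overlap the control libraries and lay above them, except those of TFEB in Ver, which overlapped. All 8 had been called higher with DHT against these same control libraries, so low control values are part of how the set looks. The share of all tested genes with this pattern is not given here. With scaling by library totals the Ver split was 8 lower and 5 higher, and the Ver calls of TFEB, SQSTM1, ATG3 and ATG5 were lost. DESeq2 ended the calls of GLA in Vc (adjusted p = 0.0785) and of TFEB (0.0515), ATG3 (0.0576), ATG5 (0.0571) and CTSZ (0.133) in Ver.

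WIPI1 fell most, from 21.5 CPM in both Vc DHT libraries to 7.3 and 6.87 with both compounds (log2 -1.60 ± 0.20, adjusted p = 1.1e-11), and in Ver from 19.7 and 21.2 to 4.29 and 6.53 (-1.92 ± 0.22, adjusted p = 5.5e-14). ATP6V0D1 fell from 88.0 and 88.3 CPM to 54.5 and 61.6 in Vc (-0.60 ± 0.08, adjusted p = 5.1e-10) and from 107 and 104 to 67.1 and 71.0 in Ver (-0.61 ± 0.08, adjusted p = 1.9e-10). MAP1LC3B fell from 28.8 and 25.4 CPM to 18.5 and 18.1 in Vc (-0.57 ± 0.14, adjusted p = 6.3e-04) and from 31.6 and 30.5 to 16.1 and 20.0 in Ver (-0.78 ± 0.14, adjusted p = 1.9e-06). In all 3 genes, in both lines, every library with both compounds was above every control and below every DHT library. ATG13 was at 70.8 and 75.5 CPM in Vc and at 86.7 and 94.0 in Ver with both compounds (-0.46 and -0.40). TFEB was at 12.4 and 13.8 CPM in Vc (-0.59 ± 0.16) and at 14.0 and 11.3 in Ver (-0.48 ± 0.17). The TFEB call was lost in Vc without Vc DHT plus enzalutamide replicate 1 (adjusted p = 0.0576) or Vc DHT replicate 2 (0.0526), and in Ver without Ver DHT plus enzalutamide replicate 2 (0.285) or Ver DHT replicate 2 (0.117). SQSTM1 fell by 0.24 in each line, from 151 and 155 CPM to 133 and 126 in Vc and from 162 and 153 to 136 and 131 in Ver. That call was lost in Vc without Vc DHT plus enzalutamide replicate 2 (adjusted p = 0.0738) and in Ver without Ver DHT replicate 1 (0.0525).

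The other calls of this comparison were in 1 line. In Vc, TFE3, BECN1, CTSD, CTSL, WIPI2, ATG4B and ATG4D also fell. CTSD went from 79.6 and 78.3 CPM to 63.5 and 66.3 (-0.28 ± 0.08), and WIPI2 from 59.8 and 55.6 to 44.1 and 47.4 (-0.34 ± 0.09). Single libraries ended 5 of these 7 calls: CTSD without Vc DHT plus enzalutamide replicate 1 (adjusted p = 0.0794) or Vc DHT replicate 1 (0.0517), CTSL without replicate 2 of the former (0.0896) or replicate 1 of the latter (0.0553), WIPI2 without Vc DHT replicate 1 (0.0568), ATG4B without Vc DHT plus enzalutamide replicate 2 (0.0533), and ATG4D without Vc DHT plus enzalutamide replicate 1 (0.196) or Vc DHT replicate 2 (0.0926). GLA, which DHT had lowered in Vc, rose from 1.23 and 1.12 CPM to 2.41 and 2.64 (1.09 ± 0.41, adjusted p = 0.036), and its call was lost without any 1 of the 4 libraries (adjusted p = 0.0893 and 0.145 without the replicates 1 and 2 with both compounds, 0.135 and 0.166 without those with DHT). In Ver, LAMP2 fell from 104 and 112 CPM to 87.7 and 85.5 (-0.32 ± 0.07, adjusted p = 1.3e-04). ATG3, ATG5 and ATG12 also fell, and GUSB (0.29 ± 0.09) and CTSZ (0.24 ± 0.09) rose. These 5 calls were lost without Ver DHT plus enzalutamide replicate 1 (adjusted p = 0.106, 0.158, 0.154, 0.213 and 0.231, in that order) and without Ver DHT replicate 2 (0.606, 0.269, 0.213, 0.33 and 0.415); ATG5 and CTSZ were also lost without Ver DHT plus enzalutamide replicate 2 (0.131 and 0.0703). The change without Ver DHT replicate 2 was -0.15 for ATG3, -0.22 for ATG12, 0.16 for GUSB and 0.15 for CTSZ, and without Ver DHT replicate 1 it was -0.63 for ATG3 and 0.43 for GUSB. The effect of enzalutamide on DHT-treated cells was not called as different between the lines for any of the 39 genes by edgeR or DESeq2. Of all tested genes, edgeR called 0.638% higher in Ver and 0.652% lower. At the looser threshold of an unadjusted p under 0.05 by edgeR there were 3 of the 39, and the share of all tested genes at that threshold is not given here.

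**Figure D4:**
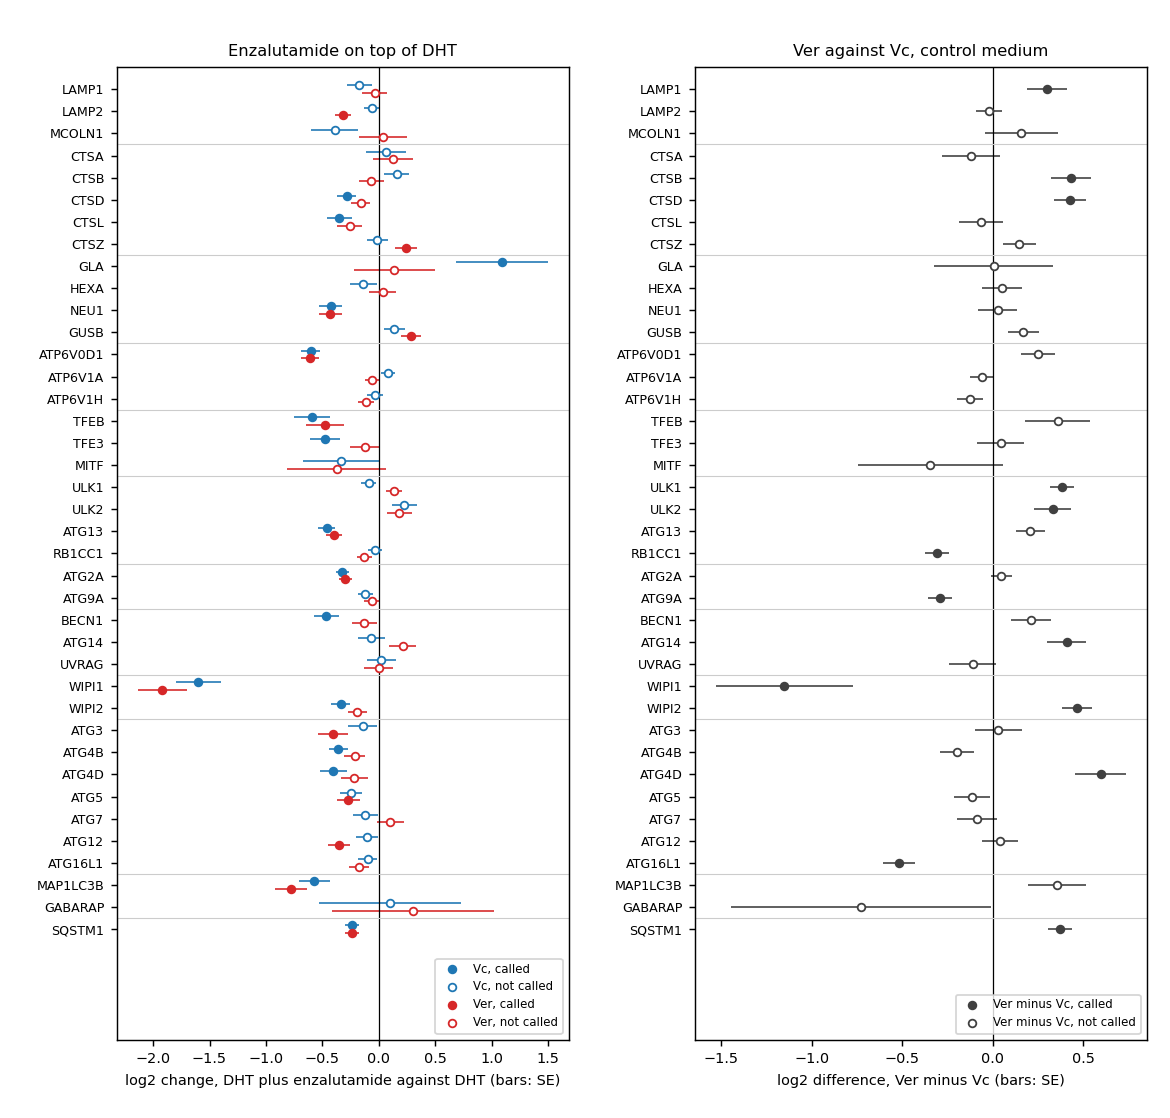
Left, log2 change with DHT plus enzalutamide against DHT in Vc (blue) and Ver (red); right, log2 difference of Ver from Vc in control medium (grey); bars are SE and filled points passed an adjusted p of 0.05. WIPI1 lies furthest left in both panels (-1.60 and -1.92 on the left, -1.15 on the right).

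Between the untreated lines, 9 of the 39 genes were higher in Ver (23.1%) and 4 lower (10.3%), beside 9.13% and 9.73% of all tested genes. The median difference was 0.04, and 0.01 over all genes. Higher in Ver were LAMP1, the proteases CTSB and CTSD, the kinases ULK1 and ULK2, ATG14, WIPI2, ATG4D and SQSTM1, and lower were RB1CC1, ATG9A, WIPI1 and ATG16L1. The lanes differ in the same way as the lines. ATG4D had the largest positive difference (14.5 and 15.9 CPM in Vc, 20.0 and 25.8 in Ver; log2 0.60 ± 0.14, adjusted p = 2.7e-04), lost without Ver control replicate 2 (0.101). WIPI2 was at 49.4 and 52.1 CPM in Vc and 68.4 and 71.6 in Ver (0.46 ± 0.08, adjusted p = 2.2e-06). ULK1 was at 94.0 and 101 CPM in Vc and 123 and 132 in Ver (0.38 ± 0.07, adjusted p = 1.8e-06), and SQSTM1 at 89.2 and 93.2 and at 123 and 113 (0.37 ± 0.07, adjusted p = 1.7e-06). None of these groups overlapped. CTSB, the cysteine protease cathepsin B, was at 27.1 and 30.5 CPM in Vc and at 38.1 and 39.5 in Ver (0.43 ± 0.11).

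Of the genes lower in Ver, WIPI1 had the largest difference (3.31 and 1.61 CPM in Vc, 0.873 and 1.34 in Ver; log2 -1.15 ± 0.38, adjusted p = 0.0142), but it rests on few counts and on Vc control replicate 1, without which it was -0.53 (adjusted p = 0.578); it was also lost without Ver control replicate 1 (0.188). ATG16L1 was at 55.1 and 54.9 CPM in Vc and at 38.6 and 38.3 in Ver (-0.52 ± 0.09, adjusted p = 9.6e-07). RB1CC1 was at 129 and 127 CPM in Vc and at 106 and 101 in Ver (-0.31 ± 0.07, adjusted p = 7.0e-05), and ATG9A at 104 in both Vc controls and at 81.5 and 87.8 in Ver (-0.29 ± 0.07, adjusted p = 5.5e-04). These 3 pairs of groups were well apart, and their calls held under every alternative tried. WIPI2 was higher and its partner ATG16L1 lower in Ver, and ULK1 and ULK2 were higher and the scaffold RB1CC1 of the same complex lower. Calls lost without 1 library were LAMP1 (adjusted p = 0.119 with DESeq2, 0.111 and 0.182 without Vc control replicates 1 and 2, 0.0802 and 0.205 without Ver control replicates 1 and 2), CTSB (0.0786 without Vc control replicate 1), CTSD (0.0554 without Vc control replicate 2), ULK2 (0.148 and 0.14 without replicate 1 of Vc and of Ver control) and ATG14 (0.26, adjusted p = 0.241, without Vc control replicate 1).

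Levels can be compared between genes only per kilobase of exon, and only where few exon bases are shared, since reads on shared bases were set aside while the length counts them. In 28 members at most 5% of exon bases are shared. The other 11 (6.0 to 55.7% shared), among them CTSD, ATG9A, SQSTM1, WIPI1 and GABARAP, were left out of this order. ATG9A stood at 21.9 ± 0.0151 CPM per kb in Vc control, and its overlapping gene model has no level in these counts. Whether reads of ATG9A were set aside is therefore not known, and it may belong among the highest genes below. Of the 28 in Vc control, ATP6V1A was highest, at 27.0 ± 1.26 CPM per kb (SD, 2 libraries), followed by CTSZ at 24.1 ± 0.527 and ATG2A at 20.5 ± 0.65. RB1CC1 at 16.9 ± 0.185 and ATP6V1H at 16.7 ± 1.18 differed by less than their spread. The lowest were MAP1LC3B at 1.94 ± 0.349, GLA at 1.53 ± 0.157, TFEB at 1.52 ± 0.086 and MITF at 0.326 ± 0.16, of which GLA and TFEB differed by less than their spread. With DHT, ATG2A stood highest in both lines, at 28.0 ± 1.31 CPM per kb in Vc and 28.0 ± 0.726 in Ver, with ATP6V1A within its spread of it (27.6 ± 0.589 and 26.7 ± 1.93). MAP1LC3B went from 1.94 to 5.10 ± 0.455 CPM per kb with DHT in Vc, and from 2.49 ± 0.0066 to 5.84 ± 0.149 in Ver. Not called in any comparison were MCOLN1, HEXA, ATP6V1A, UVRAG, ATG7 and GABARAP. ATP6V1A stayed between 130 and 154 CPM in the 16 libraries, ATG7 between 28.3 and 39.1, UVRAG between 21.0 and 29.1 and MCOLN1 between 5.94 and 10.9.

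Wider lists of 138 other genes of the same organelles, of which 137 were tested, were set beside the members. They were written from general knowledge with earlier results of these data known. Their counts stand beside 21.8% of all tested genes called higher and 22.5% called lower with DHT in Vc, and 21.2% and 22.9% in Ver; with scaling by library totals these shares were 15.9% and 30.2%, and 14.6% and 31.1%. Of the 16 other V-ATPase subunits, 10 rose with DHT in each line (62.5%) and none was called lower, and the median log2 changes were 0.47 (Vc) and 0.55 (Ver). The changes of 13 subunits in Vc and 12 in Ver were above 0, and the lowest was -0.45 in Vc and -0.17 in Ver. With library totals 10 rose and 2 fell in Vc, and 9 rose and 2 fell in Ver. The largest rises were in the V0 subunits ATP6V0A2 (1.33 ± 0.08 in Vc, 1.07 ± 0.08 in Ver), ATP6V0B (1.23 and 1.11) and ATP6V0A1 (0.76 and 0.73), so with ATP6V0D1 these 4 V0 subunits rose in both lines. The 3 from the wider list were named for the size of their rise in Vc, and the V0 and V1 sectors were not compared. Of 23 other core autophagy genes 13 rose (56.5%) and 3 fell (13.0%) in Vc, and 12 rose (52.2%) and 3 fell (13.0%) in Ver; with library totals 11 rose and 6 fell in Vc, and 12 rose and 4 fell in Ver. They included ATG4A (1.95 and 1.51), the membrane protein TMEM41B (1.25 and 1.32) and the ULK1 complex member ATG101 (1.22 and 1.10) among those that rose, and ATG16L2 (-1.13 and -1.42), ATG2B (-0.28 and -0.32) and EPG5 (-0.16 and -0.20) among those that fell. The Vc call of EPG5 was lost with DESeq2-type size factors (adjusted p = 0.0686). ATG2A and ATG2B, and ATG16L1 and ATG16L2, thus changed in opposite directions in both lines.

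Of 11 other autophagy receptors tested, 6 rose (54.5%) and 2 fell (18.2%) in Vc and 7 rose (63.6%) and 2 fell in Ver, or with library totals 6 and 3 in Vc and 4 and 3 in Ver. CCPG1, a receptor for endoplasmic reticulum, rose by 2.04 ± 0.20 in Vc and 1.29 ± 0.19 in Ver, TAX1BP1 by 0.98 and 1.09, and BNIP3, a receptor for mitochondria, by 0.85 and 0.86. OPTN (-0.95 and -0.90) and RETREG1, another receptor for endoplasmic reticulum (-0.67 and -0.94), fell. The other lysosomal hydrolases were mixed, as the member hydrolases were: 11 of 37 rose (29.7%) and 12 fell (32.4%) in Vc, and 9 rose (24.3%) and 15 fell (40.5%) in Ver, with medians of -0.02 and -0.18. With library totals 7 rose and 14 fell in Vc, and 9 rose and 19 fell in Ver. LGMN, an asparaginyl protease (1.57 and 1.94), SMPD1, acid sphingomyelinase (1.55 and 1.36), and ARSA, arylsulfatase A (1.52 and 1.25), rose, and the protease CTSF (-1.15 and -1.24), the thioesterase PPT1 (-1.08 and -1.07) and the mannosidase MANBA (-1.03 and -1.06) fell.

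Of 17 other lysosomal membrane proteins, 9 rose (52.9%) and 3 fell (17.6%) in Vc, and 10 rose (58.8%) and 3 fell in Ver. With library totals 6 rose and 3 fell in Vc, and 6 rose and 4 fell in Ver. OSTM1, the partner of the chloride transporter CLCN7 (1.83 ± 0.15 in Vc, 1.16 ± 0.14 in Ver), the cholesterol transporter NPC1 (0.91 and 0.66) and the tetraspanin CD63 (0.84 and 0.82) rose, and the peptide transporter ABCB9 (-0.37 and -0.39) and the cation channel TPCN1 (-0.22 and -0.31) fell. Of 6 genes for sorting enzymes to the lysosome, 3 rose in each line, SORT1 (1.05 and 0.96), the mannose 6-phosphate receptor IGF2R (0.62 and 0.51) and GNPTAB (0.21 and 0.32), and the other mannose 6-phosphate receptor, M6PR, fell (-0.55 and -0.70). With library totals GNPTAB was no longer called in either line (adjusted p = 0.72 and 0.104), and 2 of the 6 rose in each line while 1 fell in Vc and 2 in Ver. In the list for mTORC1 and nutrient sensing, 10 of 27 rose (37.0%) and 8 fell (29.6%) in Vc, and 9 rose (33.3%) and 8 fell (29.6%) in Ver. With library totals 7 rose and 11 fell in Vc, and 6 rose and 11 fell in Ver. MTOR, the kinase itself (0.87 and 0.88), AKT1S1 (0.61 and 0.51) and SESN2 (1.95 and 2.06) rose, and SESN3 (-1.61 and -1.50), NPRL3 (-0.83 and -0.74) and DEPTOR (-0.62 and -0.35) fell. The related sestrins SESN2 and SESN3, sensors upstream of mTORC1, moved in opposite directions.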

How the data were processed

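RNA from 16 VCaP libraries (8 groups of 2) was analysed. The authors deposited read counts per gene for each library. They also deposited a table of normalized signal, which equals the counts divided by size factors to within 0.000322 counts and served here to name genes. Tools named in the submitters' processing notes are HISAT2, SAMtools, HTSeq 0.11.1, Trimmomatic 0.36-5 and FastQC 0.11.7, with the genome GRCh38; the aligner version is not given in the sources used here. Counting was unstranded and in union mode, per the deposited files' names. Reads on overlapping genes, 7.09 to 8.55% of reads, were therefore set aside as ambiguous, and 45.0 to 50.61% lay in no gene; both stayed out of library sizes. Gene totals of 8155244 to 13273523 counts limit the precision for genes of a few CPM.

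Genes were kept by filterByExpr (22553), scaled by TMM and tested in edgeR 4.0.16 (R 4.3.3), by a robust quasi-likelihood fit over all 16 libraries (8 residual degrees of freedom, biological coefficient of variation 6.01%). All tests were two-sided F tests. Adjusted p-values are Benjamini-Hochberg over all tested genes, with calls under 0.05. The SE is a Wald error of the fit, never taken below that of Poisson counting. CPM uses TMM-adjusted sizes, and CPM per kb the union exon length of GENCODE release 29, which also gave gene positions. The scripts were tested on simulated data. Samples with the same replicate number did not deviate together (correlations of -0.023 to 0.028 over 28 pairs of groups), and the chi-square per degree of freedom between the libraries of a group was above sampling noise, so none was a duplicate.

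Alternatives were DESeq2-type size factors, library totals, no low-count filter, a replicate block, only the groups compared, DESeq2 1.42.0, and leaving out each library. The members and lists were chosen with earlier results of these data known. Values per library are given for LAMP1, CTSD, TFEB, ULK1, MAP1LC3B and SQSTM1, for the called members of each comparison that rose most or fell most (up to 4 each way), and for members that differed between the lines; others shown per library were chosen after their values were seen. From the wider lists, up to 3 genes in each direction with the largest called DHT change and a mean of at least 5 CPM are named. Promoter sequences are from RefSeq.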

Additional observations from a re-analysis of the deposited data

Results flagged for a closer look

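The response of ULK1 to DHT differed between the lines by the interaction test: the log2 change in Ver minus that in Vc was -0.333, with an adjusted p of 0.0334 by edgeR. ULK1 was the gene called higher in Vc and lower in Ver, from mean levels of 97.6 and 127 CPM in control to 109 and 113 with DHT. DESeq2 called neither of these changes (adjusted p = 0.109 in Vc and 0.165 in Ver) nor their difference (0.13). The response of SQSTM1 differed in the same direction, by -0.329 (adjusted p = 0.0231 by edgeR, 0.0616 by DESeq2). Its mean levels went from 91.2 and 118 CPM in control to 153 and 158 with DHT. In both genes the untreated Ver libraries were higher, and the same control libraries enter the difference in response and the difference between untreated lines. With 2 libraries in a group, no library could be checked as an outlier of its group.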

How the results depend on the processing

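Over the alternative settings and left-out libraries, 21 of 25 DHT calls in Vc and 16 of 26 in Ver held in every one, as did 8 of 16 and 7 of 14 for enzalutamide on DHT, and 6 of 13 between the untreated lines; neither of the 2 differences in DHT response did. The direction of ULK1 with DHT in Vc reversed to -0.010 with library totals; no other called value of a named member changed sign. Members called for enzalutamide in Vc numbered 1 (ATG2A) when only the groups compared were fitted. For the difference in DHT response they numbered 0 without the low-count filter, 1 with only the groups compared and 0 with DESeq2. Without 1 library the count ranged from 22 to 25 for DHT in Vc, 22 to 26 in Ver, 0 to 1 for enzalutamide in Ver, 12 to 13 and 9 to 13 for enzalutamide on DHT in Vc and Ver, 8 to 11 between untreated lines and 0 to 3 for the difference in DHT response. The lowest counts were 9 without Ver DHT plus enzalutamide replicate 1 or Ver DHT replicate 2, and 8 without Vc control replicate 1. Leaving out a library leaves 1 in its group, which is assumed to vary like the other groups. With the replicate block, 25 members were called for DHT in Vc, 26 in Ver, 17 and 14 for enzalutamide on DHT, 12 between untreated lines and 3 for the difference in DHT response. The share of all tested genes called in the fits of this paragraph is not given here, so these counts have no background beside them. Members of a few CPM (WIPI1 in control, GLA, MITF, GABARAP) are limited by depth. The causes of these changes were not tested.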
